A study of Homo sapiens with 72 samples.

Results

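The genes described here are the 46 that encode the enzymes and complexes which degrade an mRNA after its tail has been uridylated: DIS3L2, the exosome, the XRN nucleases, the other 3′ exonucleases, the deadenylases, the LSM1-7 ring, the decapping proteins and the CCR4-NOT complex. They were chosen by name from a list, not by their values, out of 26485 genes counted by symbol, but earlier results of these data were known. All 46 passed the filter on low counts that left 15556 genes for testing. Poly(A) mRNA was sequenced in 36 libraries, 4 from each of 9 groups. The groups are the parental line and its TUT4/7 mutant_1 and mutant_2 in DU145 (a prostate cancer cell line that does not make LIN28A), in DU145 with LIN28A overexpressed, and in IGROV1 (an ovarian cancer cell line with endogenous LIN28A). In both mutants TUT4 and TUT7 were disrupted together with a Cas9 nickase, upstream of the exons for the catalytic domain, and the study describes each mutant as a clone. The LIN28A cDNA was delivered by lentivirus under a CMV promoter with puromycin selection, and the LIN28A-overexpressing mutants carry the same clone labels as the DU145 mutants. The 4 libraries of a group carry consecutive passage numbers. For DU145 mutant_2 and both IGROV1 mutants the clone label also counts up by 1 from library to library, so whether those 4 are passages of 1 clone or several clones is not settled. The p-values given here measure only the spread between these libraries. Passages also differed between groups. Parental DU145 ended at passage 160, while its mutant 1 was at 9 to 12 and mutant 2 at 8 to 11. All 3 LIN28A-overexpressing groups were at 1 to 4. Parental IGROV1 was at 6 to 9, its mutant 1 at 2 to 5 and mutant 2 at 3 to 6. In DU145 passage cannot be told apart from the mutations, nor in wild-type DU145 from LIN28A overexpression. In IGROV1 mutant 1 shared no passage number with its wild type, and mutant 2 only passage 6. There too passage and the mutations are not separated.

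TUT4 and TUT7 are terminal uridylyl transferases that add uridines to RNA 3′ ends, including those of mRNAs whose poly(A) tail has been shortened. An oligouridine tail is a binding site for the LSM1-7 ring, which with PATL1 promotes removal of the cap by DCP2 and decay from the 5′ end by XRN1, and it is a preferred substrate of the 3′ exonuclease DIS3L2. Deadenylation by PAN2-PAN3 and by CCR4-NOT comes before, and the cytoplasmic exosome degrades the body of the mRNA from the 3′ end. The counts report the mRNA level of this machinery in the presence and absence of the transferases, not its protein or its activity, and in bulk samples fewer cells of a kind and less RNA per cell cannot be told apart.

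Library depth ran from 7195437 to 25054688 gene counts. The transcripts of the targeted genes, listed as ZCCHC11 (TUT4) and ZCCHC6 (TUT7), were lower in the mutants of all 3 backgrounds. TUT4 fell by 1.52, 1.39 and 1.02 on the log2 scale in IGROV1, DU145 and LIN28A-overexpressing DU145, and TUT7 fell by 1.15, 1.29 and 1.20. In mutant 2 of DU145 (25.9 to 44.4 CPM, TMM-scaled counts per 1000000 gene counts, against 46.3 to 65.5 in wild type) and of LIN28A-overexpressing DU145 (55.02 to 59.02 against 52.6 to 75.7) the TUT4 transcript did not pass the test, so its level there does not check the label, while TUT7 was called lower in all 6 clones. LIN28A stood at 0.456 CPM or less in every DU145 library, at 171 to 360.0 in IGROV1 and at 64.2 to 396 with overexpression, where the mutants had 4.25 times the wild-type level. Of 6 ovarian and Müllerian markers, PAX8, a transcription factor of Müllerian epithelium, was at 435 to 992 CPM in IGROV1 and at 3.01 or less in DU145. SOX17 had means of 177 CPM in parental IGROV1 and 0.566 in parental DU145. MUC16 went the other way (2.23 and 23.0), and WT1, ESR1 and EMX2 had means of 0.346 or less in both. Of 7 prostate luminal markers 1 reached a mean of 1 CPM in DU145 and 2 in parental IGROV1, where HOXB13 had 5.94 against 0.0520 in parental DU145. Of 5 epithelial markers, EPCAM (81.6 CPM in parental IGROV1, 0.263 and 0.134 in mutants 1 and 2), KRT8 (205 CPM against 3.10 and 1.61) and CDH1 (4.76 against 1.03 and 0.234) were near 0 in the IGROV1 mutants. KRT18 had 238 CPM in wild type, 324 in mutant 1 and 34.3 in mutant 2, and KRT19 734, 661 and 320.0. The summed level of the 5 was 1170 to 1307 CPM in wild type, 762.3 to 1432 in mutant 1 and 336 to 379 in mutant 2. In DU145 the sum was 1421 to 2599 in wild type, 1735 to 2418 in mutant 1 and 2422 to 3393 in mutant 2. EPCAM was lower in mutant 1 (11.4 CPM against 54.4 in wild type and 54.0 in mutant 2), as it was with LIN28A (15.2 against 41.5 and 75.02). These values stand beside every difference below, and their part in them was not tested. Replicate 4 of both IGROV1 mutants stood apart from their groups, with the 2 lowest scaling factors of all libraries (0.841 and 0.902), and the IGROV1 values of the members described are given with and without both. Replicate 1 of LIN28A-overexpressing wild type also stood apart. Its log CPM correlated at 0.966 to 0.975 with its group, whose other libraries correlated at 0.987 to 0.992. It was left out only in the series that left out each library in turn.

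A smaller share of the decay genes than of all genes was called in the IGROV1 mutants, and a similar share in DU145. At a Benjamini-Hochberg adjusted p below 0.01 in edgeR, 8 of 46 members (17.4%) were called in the IGROV1 mutants, 1 higher and 7 lower, where 33.2% of all genes were called (15.1% higher, 18.1% lower). Without both IGROV1 mutant libraries of replicate 4 the count was 9 beside 34.1% of all genes: CNOT10, DIS3L2 and ERI1 were then called, and EXOSC1 and LSM6 were not. In DU145 8 members (17.4%) were called, 3 higher and 5 lower, beside 18.1% of all genes (7.84% higher, 10.2% lower), and in LIN28A-overexpressing DU145 10 members (21.7%), 3 higher and 7 lower, beside 17.9% (7.35% higher, 10.6% lower). The median log2 fold change over the members was -0.11, -0.02 and 0.05 in the 3 backgrounds, against 0.00 over all genes tested in each. The members below 0 numbered 32 in IGROV1, 24 in DU145 and 20 with LIN28A, and what follows concerns single members. With the 4 libraries of each line or clone summed, a clone counted as 1 sample. Each background then held 1 wild-type sample and 2 clones. That fit left 3 residual degrees of freedom, too few to decide which members differ between clones and wild type. The calls given here therefore hold for these libraries and not for TUT4/7 mutants in general.

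**Figure D1:**
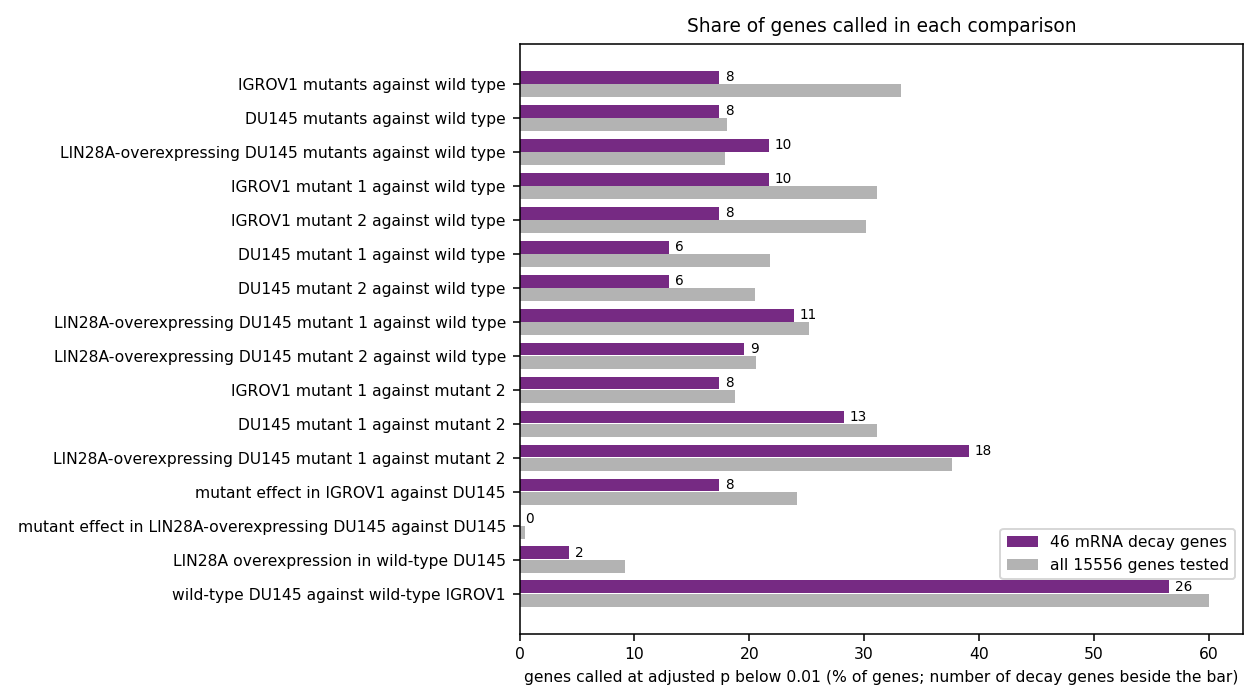
Share of genes (x axis, %) called at an adjusted p below 0.01 in each of 16 comparisons (y axis), for the 46 mRNA decay genes (purple, with the number called beside the bar) and for all 15556 genes tested (grey). The purple bar is longer than the grey one only in LIN28A-overexpressing DU145, for the mutants against wild type (21.7% against 17.9%) and for mutant 1 against mutant 2 (39.1% against 37.6%).

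Per transcript length, 3 subunits of the LSM ring, LSM7, LSM4 and LSM2, were among the 4 members with the highest levels in both parental lines, and DCP2, XRN1 and DIS3L2 had some of the lowest. On the scale of CPM per kilobase of the canonical transcript, LSM7 stood at 295 ± 10.7 (SD, n = 4) in IGROV1 and 198 ± 54.0 in DU145, above every library of the next member, LSM4. LSM1 was number 7 of 46 in IGROV1 and 3 in DU145, while LSM5, LSM3 and LSM6 were numbers 22, 27 and 33 in IGROV1 and 24, 31 and 32 in DU145. DIS3L2, the uridine-specific exonuclease, stood at 6.96 ± 0.340 in IGROV1 and 5.01 ± 0.373 in DU145, number 42 of 46 in both. XRN1 had 4.75 ± 0.312 and 6.52 ± 1.30, and DCP2 5.04 ± 1.15 and 2.67 ± 0.463, the lowest of all members in DU145. Most neighbours in this order overlapped in their libraries, and the scale depends on the transcript chosen, which for LSM7 is only 491 bases long.

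**Figure D2:**
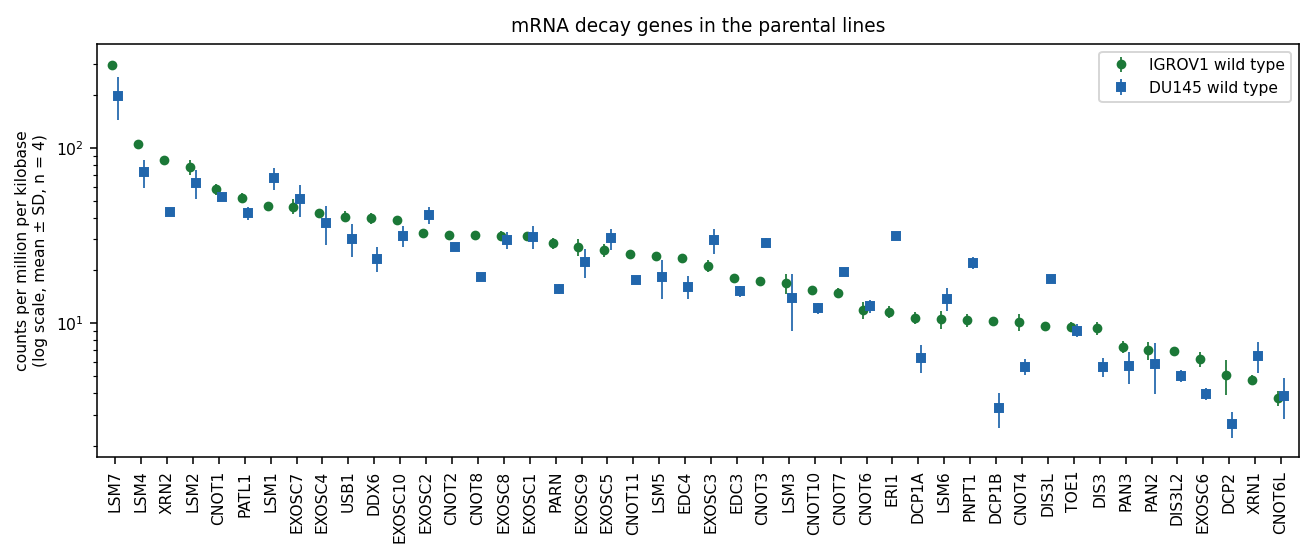
Level of each of the 46 mRNA decay genes (x axis, ordered by IGROV1) in parental IGROV1 (circles) and parental DU145 (squares), as mean ± SD of 4 libraries in CPM per kilobase on a log axis. LSM7 is the highest in both lines, at 295 and 198, and ERI1, PNPT1 and DIS3L are the members that stand most clearly higher in DU145.

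Between the parental lines the decapping genes were the group with the most calls: 6 of 7 were lower in DU145. Over all members 26 of 46 (56.5%) were called, 8 higher and 18 lower in DU145, beside 60.0% of all genes (31.3% higher, 28.7% lower). DCP1B, a partner of the decapping enzyme, was 3.12 times lower in DU145 (5.06, 8.70, 6.75 and 6.08 CPM, against 19.9, 20.1, 22.3 and 20.8 in IGROV1). DCP2, the decapping enzyme itself, was 1.89 times lower (adjusted p = 0.00889). In the opposite direction, ERI1, an exonuclease of histone mRNA and small RNA, was 2.71 times higher in DU145, PNPT1, the mitochondrial polynucleotide phosphorylase, 2.12 times, and DIS3L, the catalytic subunit of the cytoplasmic exosome, 1.85 times. XRN2, the nuclear 5′ exonuclease, was 1.99 times lower in DU145, PARN 1.82 times and CNOT4, a ubiquitin ligase of the CCR4-NOT complex, 1.80 times. DIS3L2 was 1.39 times lower (adjusted p = 0.00405). The count fell to 17 without replicate 2 or 3 of parental DU145 or replicate 3 of parental IGROV1, and DCP2 lost its call without any of DU145 replicates 1, 2 and 3 or IGROV1 replicates 2, 3 and 4 (adjusted p from 0.0122 to 0.0427).

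DIS3L2 was lower in 1 clone, IGROV1 mutant 1, and was not called over both clones in any background. The clones differed from each other in IGROV1 and in DU145. In parental IGROV1 it had 25, 23.4, 22.3 and 23.0 CPM. In IGROV1 mutant 1 it had 12.9, 12.3, 11.5 and 19.3, and in mutant 2 23.0, 22.8, 24.6 and 36.7. All mutant 1 libraries lay under the wild type, which mutant 2 overlapped: the log2 fold changes were -0.76 ± 0.14 (SE, adjusted p = 5.84e-05) and 0.19 ± 0.14 (adjusted p = 0.296), and -0.29 ± 0.12 over both clones (adjusted p = 0.0540). Replicate 4 was the highest library of each clone, and without both the values were -0.92 ± 0.11 in mutant 1, 0.01 ± 0.11 in mutant 2 and -0.45 ± 0.09 over both, which was then called (adjusted p = 0.000116). Mutant 1 minus mutant 2 was -0.95 ± 0.14 in all libraries (adjusted p = 3.72e-06). In DU145 the wild type had 18.02, 17.3, 17.1 and 15.1 CPM, mutant 1 18.6, 20.2, 17.9 and 22.9, and mutant 2 14.7, 15.3, 11.2 and 14.7. With LIN28A the values were 20.3, 19.4, 18.9 and 17.7 in wild type, 21.6, 21.4, 24.6 and 21.2 in mutant 1 and 18.3, 14.5, 15.9 and 17.6 in mutant 2. The difference over both clones was -0.02 ± 0.13 in DU145 and 0.01 ± 0.12 with LIN28A (adjusted p = 0.930 and 0.987). Mutant 1 minus mutant 2 was 0.51 ± 0.15 in DU145 (adjusted p = 0.00492) and 0.42 ± 0.14 with LIN28A, which was not called (adjusted p = 0.0134).

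Over both clones, 4 of the 12 exosome genes were called in the IGROV1 mutants and 0 in either DU145 background by edgeR at this threshold. There 5 of them had an unadjusted p below 0.05 in DU145 and 2 with LIN28A, and DESeq2 called none of them in either. Of all genes 33.2% were called in IGROV1, 18.1% in DU145 and 17.9% with LIN28A. The exosome share in IGROV1 was thus near the background. The share of all genes at an unadjusted p below 0.05 is not given here, so the 5 and 2 cannot be set against it. EXOSC9, a subunit of the barrel, had 41.8, 37.99, 42.7 and 49.6 CPM in parental IGROV1, 32.3, 30.3, 29.8 and 15.2 in mutant 1 and 32.4, 30.0, 33.8 and 18.6 in mutant 2. Every mutant library lay below the wild type, the difference being -0.62 ± 0.16 (adjusted p = 0.00152). DIS3L, the cytoplasmic catalytic subunit, went from 37.4, 36.2, 36.01 and 36.7 CPM to 21.2, 27.2, 22.4 and 14.6 in mutant 1 and 30.6, 31.7, 31.7 and 21.8 in mutant 2, again without overlap (-0.55 ± 0.12, adjusted p = 0.000210). In LIN28A-overexpressing mutant 2 alone DIS3L was called higher (0.46). It had 87.2, 73.5, 87.85 and 80.9 CPM there, against 74.4, 49.05, 54.2 and 62.3 in that wild type, with overlap. EXOSC10, a nuclear catalytic subunit, had 111, 105, 113 and 106 CPM in wild type, 90.6, 95.6, 96.7 and 108 in mutant 1 and 78.0, 74.1, 71.3 and 79.0 in mutant 2 (-0.34 ± 0.08, adjusted p = 0.000423). There the lower values were mostly those of mutant 2, and one library of mutant 1 reached the wild type. EXOSC1, a cap subunit, was the member that rose: 37.0, 35.0, 36.7 and 35.7 CPM in wild type, 50.3, 51.5, 59.0 and 67.0 in mutant 1 and 36.2, 33.0, 40.9 and 43.5 in mutant 2, which overlapped the wild type (0.37 ± 0.10, adjusted p = 0.00268).

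Without replicate 4 of both IGROV1 mutants the values of EXOSC9, DIS3L and EXOSC10 were -0.44, -0.42 and -0.36 and stayed called, and EXOSC1 had 0.31 (adjusted p = 0.0101). EXOSC9 also lost its call without wild-type replicate 4 (adjusted p = 0.0121) and EXOSC1 without wild-type replicate 2 or 4 (0.0113 and 0.0102). In DU145 the 6 barrel genes had fold changes from 0.07 to 0.51 and in LIN28A-overexpressing DU145 from 0.07 to 0.45, none of them called. DIS3, like EXOSC10 a nuclear catalytic subunit, lay between -0.25 and 0.05 in all 6 clone comparisons.

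XRN1, which degrades decapped mRNA, was not called in any background. It had 45.4, 47.0, 46.8 and 52.5 CPM in parental IGROV1, 39.6, 46.7, 32.1 and 11.9 in mutant 1 and 52.9, 51.1, 42.4 and 25.3 in mutant 2 (-0.35 ± 0.22, adjusted p = 0.204, and -0.11 ± 0.16 without both replicates 4, adjusted p = 0.609). In DU145 it had 46.3, 73.6, 73.4 and 69.7 in wild type, 66.1, 56.0, 71.9 and 35.4 in mutant 1 and 64.9, 70.8, 70.6 and 37.7 in mutant 2, and with LIN28A 71.2, 96.0, 91.4 and 92.9 against 61.2, 63.6, 79.0 and 62.3 in mutant 1 and 84.1, 108, 92.4 and 92.5 in mutant 2. The groups overlapped, and the differences were -0.15 ± 0.22 in both (adjusted p = 0.655 and 0.664). DU145 wild type replicate 1 and replicate 4 of each DU145 and IGROV1 clone were the lowest libraries of their groups.

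XRN2, the nuclear member, was lower in the IGROV1 mutants and in the LIN28A-overexpressing mutants. Parental IGROV1 had 291, 275, 292 and 305 CPM, mutant 1 249, 244, 247 and 197 and mutant 2 206, 212, 218 and 178 (-0.41 ± 0.08, adjusted p = 7.44e-05, and -0.34 without both replicates 4, where mutant 1 alone had -0.23 and was no longer called, adjusted p = 0.0319). LIN28A-overexpressing DU145 had 147, 177, 205 and 173 in wild type, 140, 130, 138 and 125 in mutant 1 and 121, 137, 138 and 141 in mutant 2 (-0.39 ± 0.08, adjusted p = 0.000326). The groups did not overlap in either background. Parental DU145 without LIN28A had 151, 142, 140 and 152 CPM and its clones 128 to 160.3, a difference of 0.01 ± 0.08 (adjusted p = 0.940). The lower mutants of the LIN28A background thus stood against a wild type at 176 CPM on average, while the wild type without LIN28A had 146. On library totals alone, without TMM scaling, the LIN28A-background value was -0.30 (adjusted p = 0.0127).

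In DU145 the largest changes of any member over both clones were in ERI1 and USB1, and with LIN28A the largest was again in ERI1. ERI1 (chromosome 8, 9002147 to 9116746, hg38), a 3′ exonuclease that trims histone mRNA and small RNAs, had 145, 136, 149 and 137 CPM in parental DU145, 129, 101, 117 and 86.6 in mutant 1 and 34.2, 36.2, 37.7 and 30.1 in mutant 2. All mutant libraries lay below the wild type (-1.21 ± 0.18, adjusted p = 4.47e-06), but the clones were far apart: mutant 2 was 4.10 times below wild type, while mutant 1 had -0.38 and was not called. With LIN28A the wild type had 128, 120, 98.8 and 106 CPM, mutant 1 111, 123, 89.4 and 95.2 and mutant 2 28.4, 30.3, 31.0 and 27.5. Here mutant 1 overlapped the wild type and mutant 2 was 3.86 times below it (-1.95 ± 0.22, adjusted p = 2.40e-08). In IGROV1 mutant 2 ERI1 rose: 48.8, 57.5, 49.1 and 53.5 CPM in wild type, 52.7, 57.9, 49.3 and 21.1 in mutant 1 and 138, 144, 120 and 51.0 in mutant 2 (1.12 ± 0.22 for mutant 2, adjusted p = 8.77e-05). Replicate 4 was the lowest library of each IGROV1 clone, and that of mutant 2 lay within the wild-type range. Without both the value was 1.37 ± 0.12 in mutant 2 (adjusted p = 4.84e-11), and 0.71 ± 0.11 over both clones against 0.46 with all libraries, called only without them (adjusted p = 1.48e-06).

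USB1 (chromosome 16, 57999546 to 58021618, hg38), which trims the 3′ end of U6 small nuclear RNA, was higher in both DU145 clones. Parental DU145 had 83.4, 54.9, 55.8 and 78.7 CPM, mutant 1 136, 149, 138 and 189 and mutant 2 113, 117, 118 and 152, with no overlap (1.02 ± 0.15, adjusted p = 5.19e-06). With LIN28A the values were 77.9, 52.2, 45.3 and 44.02 in wild type, 136, 133, 123 and 121 in mutant 1 and 87.9, 81.8, 78.1 and 77.9 in mutant 2 (0.90 ± 0.15, adjusted p = 2.87e-05). The lowest library of mutant 2 lay just under the highest of the wild type there, and mutant 2 alone was not called (0.57 ± 0.17, adjusted p = 0.0107). With the replicate number as a block over all 36 libraries, mutant 2 was called (0.57 ± 0.16, adjusted p = 0.00560). That fit gives all 9 groups a common replicate effect, although same-numbered libraries deviated together in this pair of groups and not in most others. The gained call therefore does not settle whether USB1 changed in mutant 2. In IGROV1 USB1 was at 81.6 to 94.9 CPM in wild type and at 68.4 to 127 in the clones, and was not called with or without both replicates 4.

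TOE1, a deadenylase of small nuclear RNAs, rose in mutant 2 of DU145 (0.99 ± 0.17, adjusted p = 3.43e-05) and of LIN28A-overexpressing DU145 (0.68 ± 0.17, adjusted p = 0.00219), while mutant 1 had -0.01 and -0.12. PNPT1 was not called in any of the 3 backgrounds (-0.03 ± 0.18, 0.01 ± 0.18 and -0.18 ± 0.17, adjusted p = 0.919, 0.979 and 0.492). It had 45.9, 42.2, 50.4 and 51.2 CPM in parental IGROV1, 54.1, 55.2, 46.1 and 20.2 in mutant 1 and 50.1, 58.6, 55.8 and 29.9 in mutant 2. The IGROV1 value without both replicates 4 was 0.18 ± 0.12 (adjusted p = 0.244). Parental DU145 had 104, 96.4, 111 and 91.9, mutant 1 81.9, 93.3, 80.8 and 58.0 and mutant 2 133, 144, 142 and 105, so that the clones lay on either side of the wild type and differed from each other (-0.74 ± 0.20 for mutant 1 against 2, adjusted p = 0.00359). With LIN28A the wild type had 105, 78.9, 71.4 and 78.5, mutant 1 68.6, 71.1, 70.4 and 57.5 and mutant 2 90.1, 86.3, 84.9 and 64.7, with overlap.

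**Figure D3:**
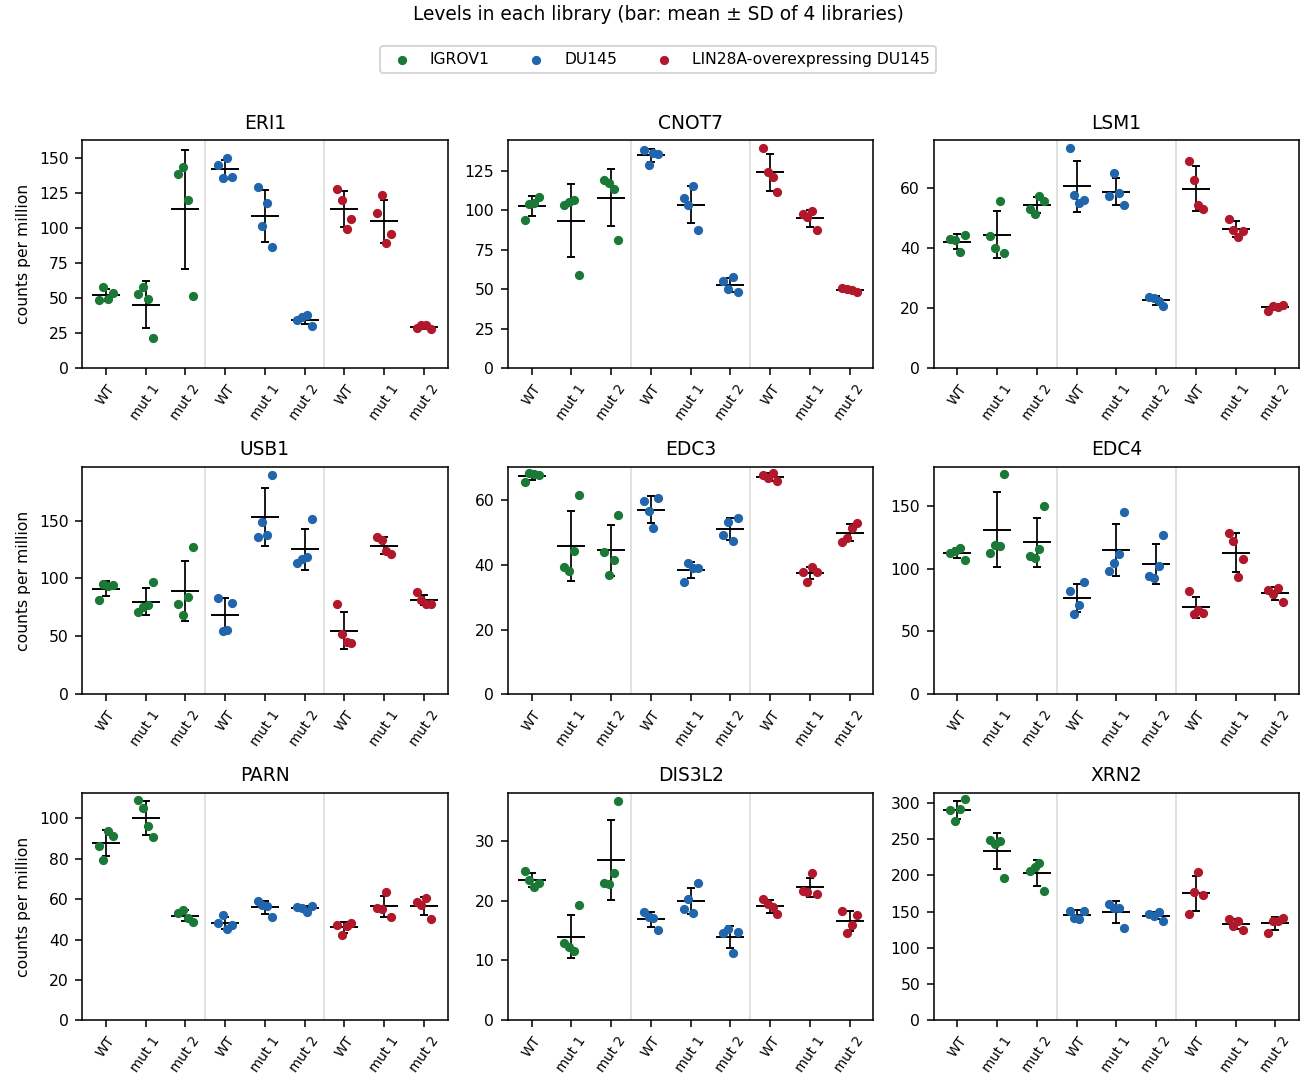
CPM (y axis, from 0) of 9 mRNA decay genes in each of the 36 libraries, by line (colour) and by wild type (WT) and mutant clone (mut 1, mut 2), with bars for the mean ± SD of 4 libraries. ERI1, CNOT7 and LSM1 drop in mutant 2 of both DU145 backgrounds (ERI1 to 27.5 to 37.7 CPM), EDC3 lies below the wild-type mean of its background in every mutant library, and PARN and DIS3L2 separate the IGROV1 clones from each other.

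PARN, a poly(A)-specific deadenylase, went in opposite directions in the lines and, within IGROV1, between the clones. Parental IGROV1 had 86.3, 79.1, 93.8 and 91.4 CPM, mutant 1 109, 105, 96.0 and 90.9 and mutant 2 53.4, 54.7, 50.6 and 48.8. Mutant 2 lay far below the wild type (-0.76 ± 0.09, adjusted p = 6.23e-09), mutant 1 overlapped it (0.20 ± 0.08, adjusted p = 0.0623), and the call over both clones (-0.28 ± 0.07, adjusted p = 0.00200) rested on mutant 2. It was lost without wild-type replicate 3 or 4 (adjusted p = 0.0206 and 0.0109), and without both replicates 4 of the mutants the value was -0.23, with -0.72 in mutant 2. In LIN28A-overexpressing DU145 PARN rose from 47.3, 42.1, 46.9 and 48.0 CPM to 55.5, 55.1, 63.6 and 51.4 in mutant 1 and 58.4, 57.1, 60.5 and 50.2 in mutant 2, without overlap (0.29 ± 0.07, adjusted p = 0.00307, and 0.0262 without wild-type replicate 2). In DU145 the wild type had 48.4, 52.2, 45.1 and 47.2 and the clones 58.9, 57.2, 56.4 and 51.1 and 56.0, 55.4, 53.7 and 56.4, a difference of 0.21 ± 0.08 that was not called (adjusted p = 0.0379).

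PAN2, the nuclease of the PAN2-PAN3 deadenylase, was called in the LIN28A background (-0.56 ± 0.16, adjusted p = 0.00656). It had 20.6, 26.9, 39.4 and 39.0 CPM in wild type, 14.97, 14.1, 17.1 and 13.6 in mutant 1 and 29.5, 28.4, 35.3 and 28.3 in mutant 2. The fall was that of mutant 1 (-1.07 ± 0.19, adjusted p = 2.52e-05), with mutant 2 inside the range of the wild type. The call over both clones was lost without wild-type replicate 3 or 4 (adjusted p = 0.0640 and 0.0502), without mutant 1 replicate 1, 2 or 4 or mutant 2 replicate 1, 2 or 4 (0.0103 to 0.0132), and on library totals alone (0.0260). In IGROV1 and DU145 the value was 0.19 and -0.39, and PAN3 was not called in any background.

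LSM1 is the subunit that sets the cytoplasmic LSM1-7 ring apart from the nuclear ring, which holds LSM8 in its place. LSM1 (chromosome 8, 38163335 to 38176730, hg38) had 73.3, 57.8, 55.1 and 56.1 CPM in parental DU145, 57.5, 65.0, 58.3 and 54.5 in mutant 1 and 23.8, 23.4, 22.3 and 20.6 in mutant 2. With LIN28A it had 69.2, 62.8, 54.2 and 53.1 in wild type, 49.8, 46.2, 43.7 and 45.7 in mutant 1 and 19.1, 20.8, 20.4 and 20.9 in mutant 2. Mutant 2 was 2.69 and 2.95 times below its wild type (adjusted p = 5.38e-12 and 4.73e-13). Mutant 1 overlapped the wild type in DU145 (-0.04 ± 0.11, adjusted p = 0.809) and lay below it with LIN28A (-0.37 ± 0.11, adjusted p = 0.00658). Over both clones the change was -0.73 ± 0.09 and -0.97 ± 0.09 (adjusted p = 2.05e-07 and 4.67e-10). In IGROV1 LSM1 had 42.9, 42.6, 38.7 and 44.5 in wild type, 43.9, 39.9, 55.8 and 38.5 in mutant 1 and 52.9, 51.2, 57.3 and 55.6 in mutant 2. There mutant 2 was called higher (0.36 ± 0.11, adjusted p = 0.00650), mutant 1 was not called (0.08 ± 0.11), and neither was the value over both (0.22 ± 0.09, adjusted p = 0.0553). Without both replicates 4 mutant 2 had 0.36 (adjusted p = 0.00968) and both clones 0.25 (adjusted p = 0.0324).

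None of the other ring subunits was called in the DU145 clones, where LSM2 to LSM7 lay between -0.39 and 0.48. The lowest were LSM4 and LSM6 in mutant 1, both at -0.39, and in mutant 2, where LSM1 was low, the 6 lay between -0.09 and 0.37. In LIN28A-overexpressing DU145 LSM5 rose in mutant 1 (0.60 ± 0.17, adjusted p = 0.00559), and in IGROV1 mutant 1 LSM7 rose (0.59 ± 0.17, adjusted p = 0.00417), a call lost without both replicates 4 (0.41 ± 0.16, adjusted p = 0.0351). LSM6 was called in the IGROV1 mutants (-0.36 ± 0.11, adjusted p = 0.00866), with 24.2, 25.5, 24.6 and 19.4 CPM in wild type, 19.2, 19.2, 21.4 and 17.4 in mutant 1 and 17.5, 19.99, 15.7 and 15.4 in mutant 2. Wild-type replicate 4 lay within the range of mutant 1. The call was lost without wild-type replicate 1, 2 or 3, mutant 1 replicate 1, 2 or 4 or mutant 2 replicate 1, 3 or 4 (adjusted p from 0.0114 to 0.0466), without both replicates 4 of the mutants (-0.30, adjusted p = 0.0403), and in DESeq2 (adjusted p = 0.0137).

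EDC3, a scaffold of the decapping complex, was lower in the mutants of all 3 backgrounds and was called lower in 5 of 6 clone comparisons, more than any other member. The DU145 and LIN28A-overexpressing comparisons hold the same clones and are not independent of each other. Parental IGROV1 had 65.6, 68.4, 68.2 and 67.7 CPM, mutant 1 39.2, 38.2, 44.2 and 61.8 and mutant 2 43.95, 36.9, 41.6 and 55.5 (-0.58 ± 0.10, adjusted p = 7.21e-06). Parental DU145 had 59.8, 56.6, 51.4 and 60.6, mutant 1 34.7, 40.5, 39.1 and 38.9 and mutant 2 49.2, 53.3, 47.3 and 54.5 (-0.37 ± 0.10, adjusted p = 0.00492). With LIN28A the wild type had 67.9, 66.9, 68.4 and 65.8, mutant 1 37.9, 34.8, 39.3 and 37.9 and mutant 2 47.3, 48.3, 51.3 and 53.1 (-0.64 ± 0.10, adjusted p = 4.50e-06). The groups did not overlap in IGROV1 and with LIN28A, whereas DU145 mutant 2 overlapped its wild type (-0.16 ± 0.11). Without both replicates 4 the IGROV1 value was -0.72. In DU145 the call was lost without wild-type replicate 1, 2 or 4, mutant 1 replicate 1 or mutant 2 replicate 1 or 3 (adjusted p from 0.0124 to 0.0290).

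EDC4, the large scaffold that joins DCP1 and DCP2, rose in the DU145 mutants. Its wild-type libraries had 81.9, 63.9, 70.8 and 89.6 CPM, those of mutant 1 97.8, 105, 112 and 145 and those of mutant 2 94.0, 92.4, 102 and 127 (0.51 ± 0.13, adjusted p = 0.00266), with no overlap. With LIN28A it had 81.9, 63.9, 67.0 and 64.6 in wild type, 128, 122, 93.2 and 108 in mutant 1 and 83.4, 79.9, 84.3 and 73.6 in mutant 2 (0.46 ± 0.13, adjusted p = 0.00642), where mutant 2 overlapped. The DU145 call was lost without wild-type replicate 2 or 3 or mutant 2 replicate 4 (adjusted p from 0.0123 to 0.0372), and that with LIN28A without wild-type replicate 2, 3 or 4, mutant 1 replicate 1 or 2 or mutant 2 replicate 1, 3 or 4 (0.0117 to 0.0428). In IGROV1 EDC4 was at 107 to 117 CPM in wild type and at 108 to 176 in the clones.

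DCP2 was not called in any background. Parental IGROV1 had 41.8, 67.9, 47.2 and 46.9 CPM, mutant 1 39.1, 59.1, 47.7 and 14.0 and mutant 2 68.4, 61.1, 39.9 and 18.6 (-0.22 ± 0.26, adjusted p = 0.511, and 0.05 ± 0.18 without both replicates 4). In DU145 it had 20.9, 27.6, 27.1 and 32.3 in wild type, 41.0, 32.5, 35.5 and 18.2 in mutant 1 and 21.1, 29.3, 21.1 and 15.9 in mutant 2 (-0.03 ± 0.27, adjusted p = 0.957). With LIN28A the wild type had 26.7, 21.5, 25.3 and 31.5, mutant 1 43.0, 51.6, 51.3 and 45.5 and mutant 2 20.6, 20.7, 27.3 and 30.5. There every library of mutant 1 lay above the wild type, with 0.87 ± 0.31 for that clone (adjusted p = 0.0247) and 0.39 ± 0.27 over both (adjusted p = 0.302), neither called. Of the remaining decapping genes DDX6, the helicase partner of PATL1, lay between -0.30 and -0.03 in the 6 clone comparisons, and PATL1 fell in IGROV1 mutant 1 (-0.34 ± 0.09, adjusted p = 0.00224). Without both replicates 4 PATL1 had -0.26 in mutant 1 and was not called (adjusted p = 0.0149). Mutant 2 then had 0.29 and was called (adjusted p = 0.00681).

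Of the catalytic subunits of CCR4-NOT, the main cytoplasmic deadenylase, CNOT7 was the one called over both clones. CNOT7 (chromosome 8, 17224966 to 17246878, hg38) had 138, 129, 136 and 136 CPM in parental DU145, 108, 103, 116 and 87.3 in mutant 1 and 55.3, 49.9, 57.8 and 47.8 in mutant 2 (-0.87 ± 0.11, adjusted p = 2.67e-07). With LIN28A it had 140, 124, 121 and 112 in wild type, 97.5, 95.4, 99.8 and 87.2 in mutant 1 and 50.6, 49.9, 49.7 and 47.8 in mutant 2 (-0.86 ± 0.11, adjusted p = 2.31e-07). All mutant libraries lay below the wild type in both, and mutant 2 was 2.56 and 2.51 times below it, while mutant 1 had -0.38 and -0.39 and was not called. CNOT8, the close relative of CNOT7 that occupies the same place in the complex, went opposite ways in the clones: it rose in mutant 1 (0.65 ± 0.10 in DU145, 0.60 ± 0.10 with LIN28A, adjusted p = 1.02e-05 and 1.86e-05) and fell in mutant 2 (-0.55 ± 0.10 and -0.37 ± 0.10, adjusted p = 0.000110 and 0.00528). DU145 mutant 2 therefore had less mRNA of both nucleases. CNOT6 and CNOT6L were not called in any clone.

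CNOT2 and CNOT11, structural subunits, were called in DU145. CNOT2 had 76.3, 76.6, 80.3 and 76.4 CPM in wild type, 53.1, 52.1, 56.0 and 38.9 in mutant 1 and 77.9, 76.7, 82.1 and 66.9 in mutant 2 (-0.33 ± 0.09, adjusted p = 0.00634). With LIN28A it had 72.3, 77.1, 80.0 and 70.7 in wild type, 46.8, 46.4, 50.0 and 45.8 in mutant 1 and 74.0, 77.5, 76.3 and 77.9 in mutant 2 (-0.32 ± 0.09, adjusted p = 0.00707). The lower libraries were those of mutant 1, while mutant 2 overlapped the wild type. The calls over both clones were lost on library totals alone (adjusted p = 0.0547 and 0.0985), in DU145 without wild-type replicate 1 or 3 or mutant 1 replicate 4 (0.0130 to 0.0169), and with LIN28A without wild-type replicate 2 or 3 or mutant 1 replicate 1, 2 or 4 (0.0118 to 0.0361). CNOT11 rose in DU145 from 41.7, 45.0, 44.7 and 46.9 CPM to 58.3, 55.2, 61.1 and 61.4 in mutant 1 and 53.0, 54.8, 52.5 and 46.5 in mutant 2 (0.31 ± 0.07, adjusted p = 0.00110), with 1 library of mutant 2 inside the wild-type range. CNOT1, the scaffold of the complex, lay between -0.24 and 0.26 in the 6 clone comparisons.

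**Figure D4:**
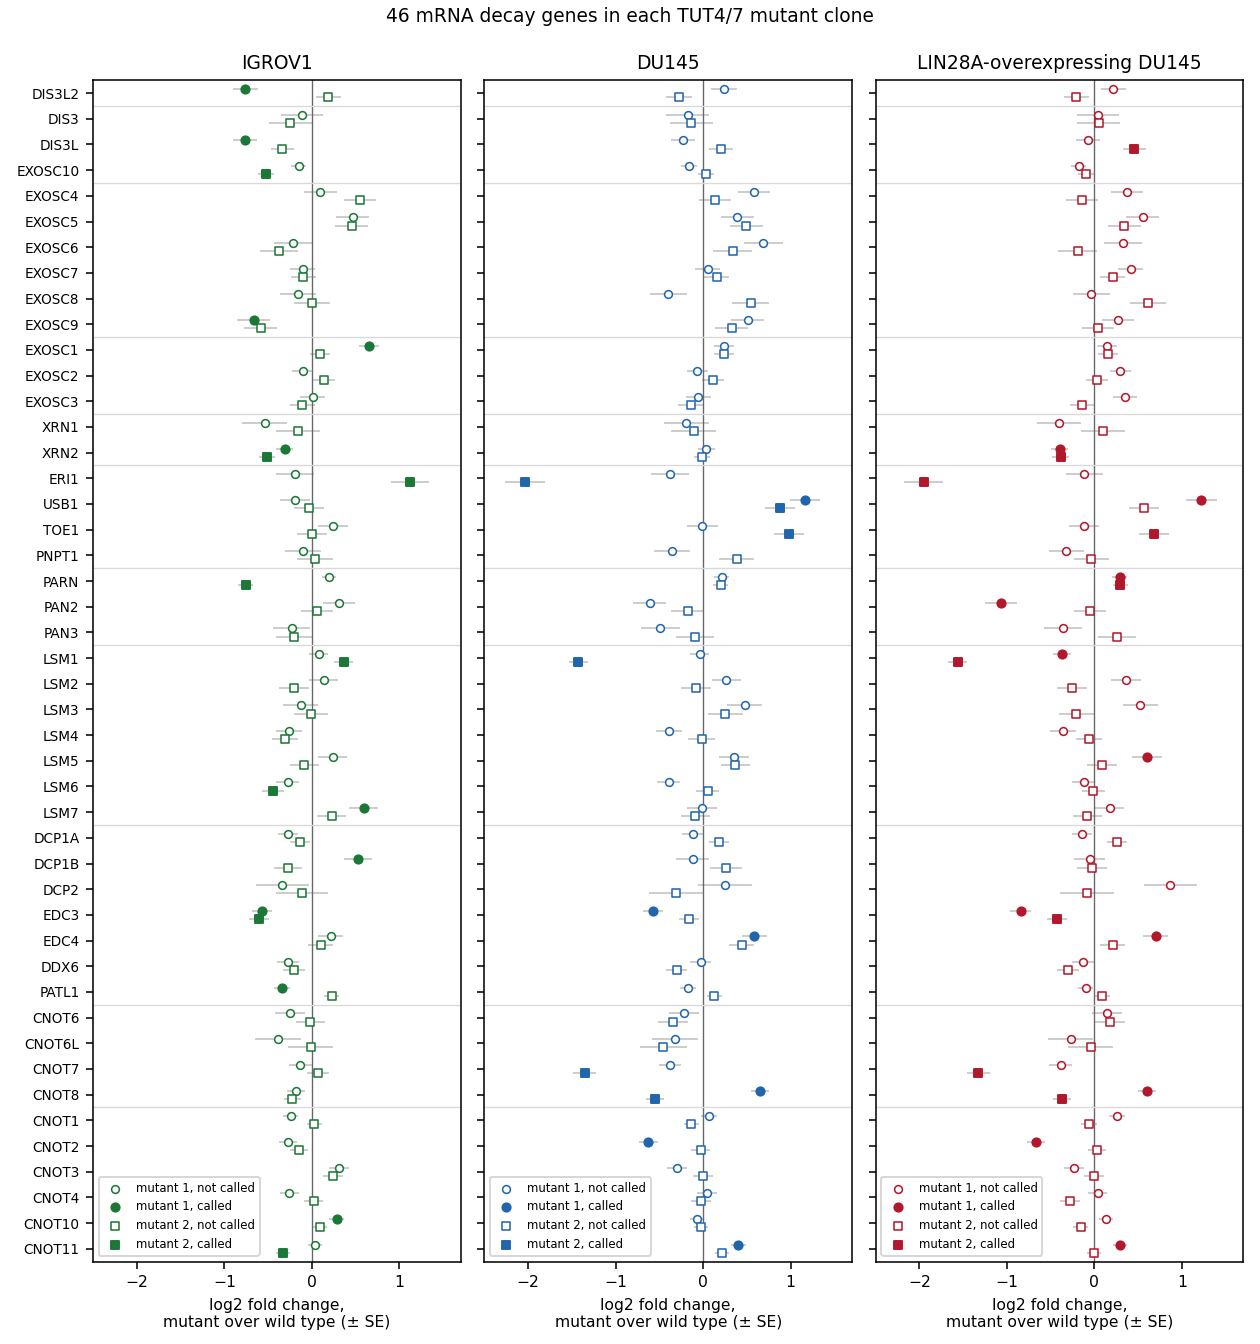
Log2 fold change ± SE (x axis) of the 46 mRNA decay genes (y axis, by role) in mutant 1 (circles) and mutant 2 (squares) against wild type, in IGROV1, DU145 and LIN28A-overexpressing DU145. Filled symbols are called at an adjusted p below 0.01: ERI1, LSM1 and CNOT7 stand out in DU145 mutant 2, at -2.03, -1.43 and -1.35, and the right-hand panel repeats them at -1.95, -1.56 and -1.33.

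Some of the members that changed most in one clone lay among genes that changed with them. For every member, the median log2 fold change of the tested genes within 5 megabases on either side was taken, leaving out the member, for 44 members with 20 or more such neighbours. This measure was chosen after the values had been seen. Around ERI1, all 25 neighbours were below 0 in mutant 2 of DU145 and of LIN28A-overexpressing DU145, with medians of -1.81 and -1.65 beside -2.03 and -1.95 for ERI1 itself. Around CNOT7 the medians over 29 neighbours were -1.32 and -1.34, beside -1.35 and -1.33, and around LSM1 over 39 neighbours -0.97 and -1.13, beside -1.43 and -1.56. In mutant 1 the same 3 neighbourhoods had medians from -0.43 to -0.28. The 3 genes lie on chromosome 8 between 9002147 and 38176730, the medians over all tested genes were near 0, and the part of the neighbourhood in these falls was not tested.

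Other members also moved with their surroundings. In IGROV1 mutant 1 the 49 neighbours of DIS3L2 on chromosome 2 had a median of -1.01, beside -0.76 for DIS3L2, whereas in mutant 2 they had -0.43 and DIS3L2 0.19. The 98 neighbours of EXOSC1 on chromosome 10 had 0.44 in mutant 1, beside 0.65. Around PARN in IGROV1 mutant 2 the median was -0.38, beside -0.76. PAN2 in LIN28A-overexpressing mutant 1 had -1.07 and its 133 neighbours -0.43. A low neighbourhood did not always go with a called member. CNOT6L had the lowest neighbour median of all members over the IGROV1 mutants (-0.72) and in DU145 mutant 1 (-0.55). CNOT6L itself lay between -0.45 and -0.01 in the 6 clone comparisons and was called in none. Some changes stood out from the genes around them: ERI1 in IGROV1 mutant 2 had 1.12 and its neighbours 0.09, TOE1 in DU145 mutant 2 0.99 and 0.12, USB1 in DU145 1.17 and 0.34 in mutant 1 and 0.88 and 0.13 in mutant 2, and EDC3 in LIN28A-overexpressing mutant 2 -0.43 and 0.00. Across the 44 members, which are not independent replicates and share windows and libraries, Pearson's r between a member's change and that of its neighbours ran from 0.46 to 0.84 in the 6 clone comparisons and Spearman's rho from 0.39 to 0.67. Between the parental lines r was 0.26 and rho 0.08, and the neighbours of CNOT7 had a median of 1.46 there, beside 0.39 for CNOT7.

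**Figure D5:**
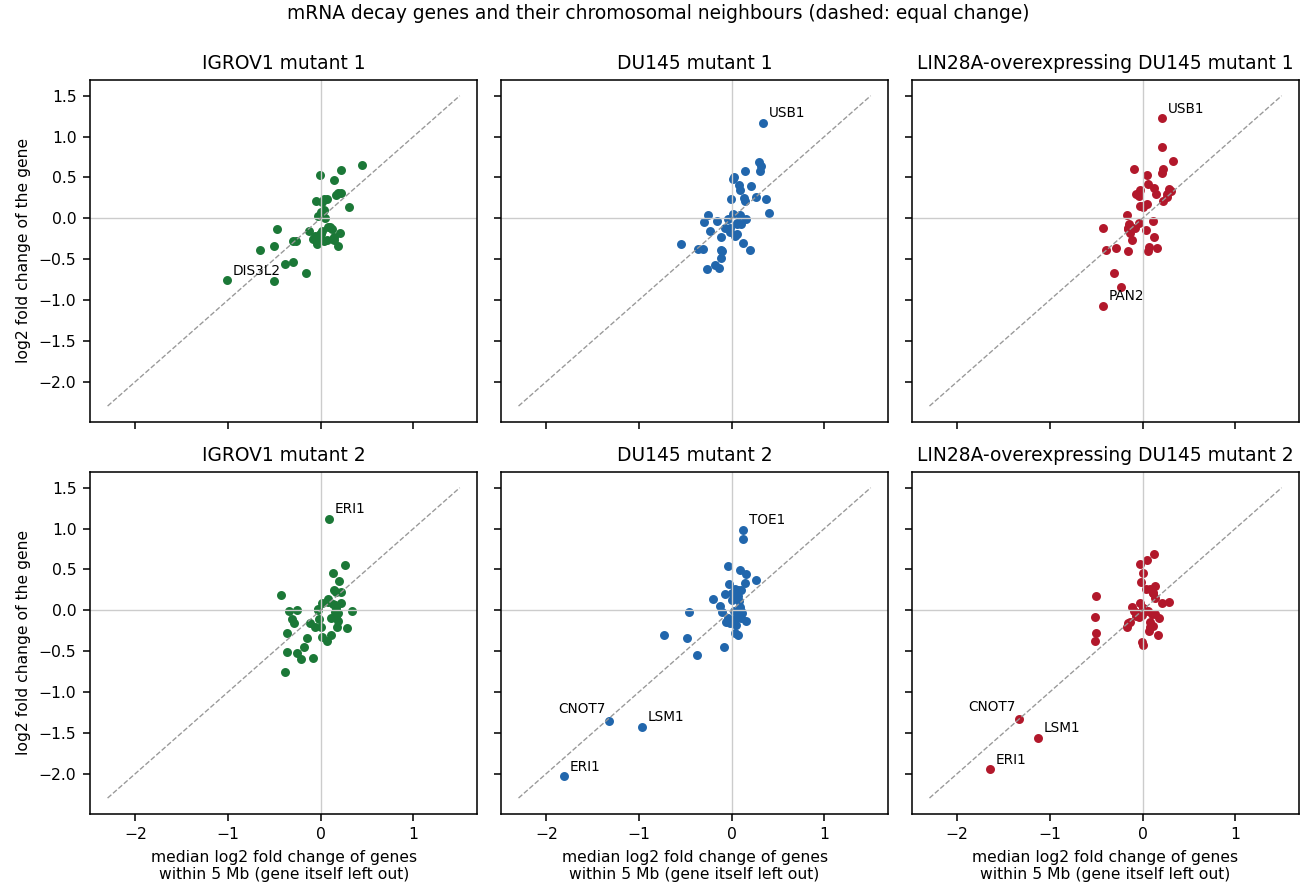
Log2 fold change of each of 44 mRNA decay genes (y axis) against the median log2 fold change of the tested genes within 5 megabases of it (x axis), in each clone against wild type, with the line of equal change dashed. ERI1, CNOT7 and LSM1 lie near that line at the lower left in mutant 2 of both DU145 backgrounds, while USB1, TOE1 and, in IGROV1 mutant 2, ERI1 lie well above it.

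Comparison of the clones with each other gave 8 called members in IGROV1, 13 in DU145 and 18 in LIN28A-overexpressing DU145, beside 18.8%, 31.1% and 37.6% of all genes (8.79%, 15.7% and 17.6% higher in mutant 1). Over the 6 clone comparisons with wild type, 22 members were called in none, and 6 were called higher in one clone and lower in another (DIS3L, ERI1, PARN, LSM1, CNOT8 and CNOT11). The counts per clone were 10 and 8 in IGROV1 (beside 31.1% and 30.1% of all genes, and 5 and 8 without both replicates 4, beside 30.4% and 32.2%), 6 and 6 in DU145 (21.8% and 20.5%) and 11 and 9 with LIN28A (25.2% and 20.6%). Those higher and lower were 4 and 6 in mutant 1 and 2 and 6 in mutant 2 of IGROV1, 4 and 2 and then 2 and 4 in DU145, and 6 and 5 and then 3 and 6 with LIN28A. Of all genes, mutants 1 and 2 had 14.5% and 14.2% higher and 16.6% and 15.9% lower in IGROV1, 10.4% and 9.99% higher and 11.3% and 10.5% lower in DU145, and 11.3% and 10.5% higher and 13.9% and 10.1% lower with LIN28A. In the count of members whose 4 wild-type and 8 mutant libraries did not overlap, IGROV1 had 5 (all lower), DU145 4 (2 higher, 2 lower) and LIN28A-overexpressing DU145 7 (3 higher, 4 lower), beside 24.7%, 9.94% and 8.99% of all genes.

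Whether the mutant effect differed between the cell lines was tested as an interaction, which called 8 members, 3 with the higher value in IGROV1 and 5 in DU145, beside 24.2% of all genes (11.3% and 12.8%). They were ERI1 (IGROV1 minus DU145 1.67 ± 0.27, adjusted p = 6.95e-06), LSM1 (0.95 ± 0.13, 6.03e-07), CNOT7 (0.84 ± 0.16, 9.07e-05), USB1 (-1.13 ± 0.21, 6.25e-05), EXOSC9 (-1.04 ± 0.23, 0.000521), PARN (-0.49 ± 0.10, 0.000417), CNOT11 (-0.46 ± 0.10, 0.000369) and XRN2 (-0.43 ± 0.12, 0.00414). For the first 3 the DU145 values were lowest in mutant 2, as given above, and ERI1 also rose in IGROV1 mutant 2. The XRN2 call was lost without parental DU145 replicate 2 or 3 or parental IGROV1 replicate 4 (adjusted p from 0.0120 to 0.0141). EDC3, lower in both lines, was not called in this test. Without both IGROV1 replicates 4 it was (-0.36 ± 0.10, adjusted p = 0.00300), as were DIS3L2 (-0.44 ± 0.13, 0.00675) and EXOSC6 (-0.95 ± 0.27, 0.00570).

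No difference in the mutant effect between LIN28A-overexpressing DU145 and DU145 was called for any member, and few genes of any kind were called. LIN28A itself was higher in the overexpressing mutants than in their wild type, as given above. The interaction between LIN28A and the mutants called 0 of 46 members in edgeR and in DESeq2, with 2 members at an unadjusted p below 0.05 in edgeR, XRN2 (-0.40 ± 0.12, adjusted p = 0.0758) and CNOT6 (0.44 ± 0.21, adjusted p = 0.399), beside 0.489% of all genes called. In wild-type DU145, LIN28A overexpression was accompanied by 2 called members, 1 higher and 1 lower, beside 9.21% of all genes (6.67% higher, 2.55% lower). EXOSC3, a cap subunit of the exosome, had 65.5, 46.5, 47.8 and 55.8 CPM without and 45.4, 30.9, 30.6 and 34.1 with LIN28A (-0.61 ± 0.14, adjusted p = 0.00250), and CNOT11 41.7, 45.0, 44.7 and 46.9 without and 50.5, 64.9, 55.7 and 58.0 with LIN28A (0.36 ± 0.08, adjusted p = 0.00157). Neither pair of groups overlapped. These calls rested on few libraries: EXOSC3 lost its call without replicate 2 or 3 of the overexpressing line or replicate 1 of DU145 (adjusted p from 0.0154 to 0.0233), CNOT11 without replicate 2 or 4 or DU145 replicate 3 (0.0118 to 0.0152), and the count ran from 0 without replicate 2 of the overexpressing line to 9 without its replicate 1, with 1 without its replicate 3 or 4 or DU145 replicate 1 or 3.

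Among 50 other genes of mRNA decay outside the list, 13 were called in the IGROV1 mutants (4 higher, 9 lower), 9 in DU145 (3 higher, 6 lower) and 5 with LIN28A (2 higher, 3 lower), with medians of -0.09, -0.07 and -0.04, beside 33.2%, 18.1% and 17.9% of all genes called. In IGROV1 the largest were BTG2 (-1.79 ± 0.23) and TOB1 (1.16 ± 0.20), antiproliferative proteins that bind CNOT7 and CNOT8, and the AU-rich element binding proteins ZFP36L1 (-1.40 ± 0.14) and ZFP36L2 (-0.67 ± 0.12), which recruit deadenylases. BTG2 rose in DU145 instead (1.23 ± 0.29), where UPF3B and SMG9, factors of nonsense-mediated decay, had -1.004 ± 0.18 and 0.72 ± 0.13 and ZCCHC7, a nuclear exosome cofactor, -0.65 ± 0.16. The UPF3B value was that of mutant 2 (-1.86, against -0.15 in mutant 1, not called), and with LIN28A UPF3B was higher in mutant 1 (0.75) and lower in mutant 2 (-1.41). With LIN28A, ZFP36L2 (-0.63 ± 0.12), the decapping enzyme DXO (0.56 ± 0.14) and the poly(A) binding protein PABPC4 (-0.46 ± 0.08) were among those called, DXO through mutant 2 (1.14, against -0.02 in mutant 1). Both clones were called for BTG2, TOB1 and ZFP36L1 in IGROV1 and for PABPC4 with LIN28A, and 1 clone for ZFP36L2 (mutant 1, in IGROV1 and with LIN28A), ZCCHC7 (mutant 1) and, in DU145, BTG2 and SMG9 (mutant 2). By group, the calls in IGROV1, DU145 and LIN28A-overexpressing DU145 were 0, 1 and 0 of 11 exosome cofactors, 3, 1 and 0 of 10 CCR4-NOT partners, 3, 2 and 2 of 9 decapping and LSM partners, 4, 3 and 1 of 10 nonsense-mediated decay factors and 3, 2 and 2 of 10 poly(A) and AU-rich element binding proteins.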

How the data were processed

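Whole-number counts of reads per gene symbol were deposited by the authors for each mRNA library. According to the study's methods and the submitters' processing notes, poly(A) RNA was made into directional libraries, reads were trimmed with Trimmomatic 0.39, ribosomal reads removed with sortmeRNA, the rest aligned to hg38 with HISAT2 2.1.0 and counted with HTSeq. The annotation and the strand setting of the counting are not given in the sources used here, so overlapping and antisense genes may share counts. The 5 closing rows per file that name no gene held 21.9% to 30.1% of a library and were left out. 36 small RNA libraries were not used here.

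One edgeR 4.0.16 quasi-likelihood fit (R 4.3.3, TMM scaling, filterByExpr) held 9 group means over the 36 libraries and 15556 genes. Log2 fold changes, their SEs and Benjamini-Hochberg adjusted p-values over all genes tested come from that fit, and a gene was called at an adjusted p below 0.01, the threshold of the study. The study used DESeq2, which (1.42.0) served as an alternative here, beside other scalings, no filter, other sets of libraries, a replicate block, a term for replicates 1 and 2 against 3 and 4, sums per clone and single libraries left out. Leaving out both IGROV1 mutant libraries of replicate 4 was added after seeing the data. Same-numbered libraries deviated together, with every correlation above 0.1, between DU145 mutants 1 and 2 (0.116 to 0.533) and between LIN28A-overexpressing wild type and mutant 2 (0.167 to 0.507), a pairing that comes from the data and not from the labels. The script was tested on simulated counts. CPM are TMM-scaled, and genes were placed, and lengths taken, with GENCODE v44 on hg38. Genes were described in full where called over both clones (up to 10 per background, 8 for the parental and LIN28A comparisons), and DIS3L2, XRN1, LSM1, DCP2, PARN and PNPT1 always. Members and lists were chosen with earlier results of these data known. The values of 1 gene outside the 46 that this rule names are not reported here.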

Additional observations from a re-analysis of the deposited data

Results flagged for a closer look

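The highest or lowest of the 4 libraries of a group stood apart from the other three, by Dixon's criterion, in 20 of 180 combinations of gene and group tested, where chance gives about 1 in 20. Of these, 12 were replicate 4 of a mutant, 8 of them in IGROV1. In IGROV1 mutant 1 replicate 4, EXOSC9 had 15.2 CPM (29.8 to 32.3 in the others), XRN2 196.5 (243.5 to 249.2), CNOT7 58.8 (103.2 to 106.2) and CNOT2 55.3 (79.8 to 83.5), all low, and EDC4 175.7 (112.2 to 118.7), high. In IGROV1 mutant 2 replicate 4, DIS3L had 21.75 CPM (30.6 to 31.7), CNOT7 80.9 (113.7 to 119.2) and DIS3L2 36.65 (22.8 to 24.6). Replicate 4 of DU145 mutant 1 had 127.7 CPM of XRN2 (155.4 to 160.3), and that of mutant 2 had 98.25 of EXOSC10 (86.7 to 88.3) and 151.6 of USB1 (113.2 to 118.1). With LIN28A, mutant 2 replicate 4 had 70.6 CPM of EXOSC10 (75.6 to 76.2).

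The remaining ones were in other replicates. Parental DU145 replicate 1 had 43.3 CPM of EXOSC1 (32.6 to 33.6), 73.25 of LSM1 (55.1 to 57.8) and 46.3 of XRN1 (69.7 to 73.6), and its replicate 3 had 80.3 of CNOT2 (76.3 to 76.6). Parental IGROV1 replicate 1 had 81.6 CPM of USB1 (93.3 to 94.9), and DU145 mutant 2 replicate 3 had 11.2 of DIS3L2 (14.7 to 15.3). With LIN28A, mutant 1 replicate 3 had 24.55 CPM of DIS3L2 (21.2 to 21.6) and 79.0 of XRN1 (61.2 to 63.6).

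The mutant effect differed between IGROV1 and DU145, by the interaction in edgeR, for 8 members, beside 24.2% of all genes. As IGROV1 minus DU145 on the log2 scale the differences were 1.67 for ERI1, 0.95 for LSM1, 0.84 for CNOT7, -1.13 for USB1, -1.04 for EXOSC9, -0.49 for PARN, -0.46 for CNOT11 and -0.43 for XRN2. Without both IGROV1 replicates 4 the value for ERI1 was 1.91.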

How the results depend on the processing

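Over 44 pairs of a named gene and a comparison, the call held for 40 with the size factors of DESeq2, 39 on library totals alone, 36 with no filter on low counts, 35 when only the libraries compared were fitted, 43 in DESeq2 and all 44 with a term for replicates 1 and 2 against 3 and 4. No direction was reversed. With single libraries left out in turn, 15 of the 44 pairs lost the call at least once, again without a reversal. Summed per line or clone, each wild type was 1 sample, and that fit is too small to decide which calls hold between clones. On library totals alone DU145 mutant 2 had 10 called members and LSM7 in parental IGROV1 280.0 CPM per kilobase, and with no filter LIN28A overexpression had 1. At an adjusted p below 0.05 the members called were 13 in IGROV1, 14 and 10 in DU145 mutants 1 and 2, 17 in LIN28A-overexpressing mutant 1, 13 in the interaction and 8 for LIN28A overexpression. With only the libraries compared they were 4 in IGROV1, 4 in its mutant 1, 4 in LIN28A-overexpressing mutant 2, 2 between the IGROV1 clones and 0 for LIN28A overexpression. Without both replicates 4 of the IGROV1 mutants, chosen after seeing the data, IGROV1 mutant 1 had 5 called members, beside 30.4% of all genes. In IGROV1 9 members then did not overlap, but with fewer mutant libraries more genes of any kind can do so. For these counts the cause was not tested. Shares of all genes are not given for the other settings or for single libraries left out below. Those counts show only how the calls move with the setting.

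Leaving out 1 library at a time gave 5 to 9 members in IGROV1, 5 to 9 and 6 to 8 in its clones and 8 to 10 between them. It gave 6 to 8 in DU145, 5 to 8 and 6 to 6 in its clones and 8 to 11 between them. With LIN28A it gave 7 to 14, 7 to 14 and 3 to 9, and 12 to 18 between the clones. The interaction of lines gave 7 to 9, that with LIN28A 0 to 0, LIN28A overexpression 0 to 9 and the parental lines 17 to 23. Counts moved over 1.5 times without parental IGROV1 replicate 4 (IGROV1 5, mutant 1 6), parental IGROV1 replicate 3 or mutant 1 replicate 4 (mutant 1 5), LIN28A-overexpressing wild type replicate 3 (mutant 1 7, mutant 2 3) or mutant 2 replicate 1 (mutant 2 4), and DU145 mutant 2 replicate 3 (8 between the clones). Over 9 sets of 2 groups, 21 of 36 pairs of same-numbered libraries correlated above 0.1 (from -0.27 to 0.74), and for 17 of the 36 pairs the own number correlated best. All 4 pairs were above 0.1 in 2 sets, DU145 mutant 1 with mutant 2 and LIN28A-overexpressing wild type with mutant 2. With the replicate number as a block, fitted over all 36 libraries with 1 common effect, these had 13 and 10 called members (13 and 9 without it), USB1 being the one gained. In the other 7 sets the libraries share only a number. The block gave 8, 8 and 10 members over both clones in IGROV1, DU145 and LIN28A-overexpressing DU145, and all 44 named calls held. The lowest raw count of any member in any library was 45 (DCP1B in DU145 mutant 1).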
